A study of Homo sapiens with 4 samples.

Results

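miR-26a and miR-26b are the guide strands of the miR-26 family, and both were measured with an Agilent human miRNA microarray in HepG2, a human hepatoma cell line. They were taken by their array names, hsa-miR-26a and hsa-miR-26b, which are 2 of the 851 human miRNAs on the array. Berberine chloride, an isoquinoline alkaloid, was given at 40 µM for 2 h or 4 h, and control cells received its solvent, DMSO, at 0.08% for the same times. Each of the 4 conditions was hybridised to 1 array, all 4 arrays lay on 1 slide, and there were no replicates, so that the error of a value is the measurement error within its array and does not hold the spread between cultures. HepG2 is 1 tumour line, and its miRNAs need not follow those of hepatocytes.

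The miR-26 hairpins lie in introns of the CTDSP genes, which encode small phosphatases of the C-terminal domain of RNA polymerase II, and they are transcribed together with these hosts. An miRNA binds target mRNAs mainly through its seed, the bases near its 5′ end, so family members with 1 seed share most of their predicted targets. miR-26 is known to repress EZH2, a histone methyltransferase, and several G1 cyclins, and its level is often lower in hepatocellular carcinoma than in the surrounding liver.

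The mature sequences are shown because the seed that makes these miRNAs a family, and the bases that tell them apart on an array, can be read from them. They are from RefSeq, 5′ to 3′, with the seed, bases 2 to 8, in capitals.
hsa-miR-26a (miR-26a-5p): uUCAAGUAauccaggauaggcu
hsa-miR-26b (miR-26b-5p): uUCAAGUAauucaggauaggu
hsa-miR-1297: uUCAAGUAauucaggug
Counted from 1 at the 5′ end, miR-26b differed from miR-26a by C11U and C21U over the 21 positions they share, and miR-26a has 1 more base. miR-1297 differed from miR-26b by A16U and U17G over 17 positions. In the RefSeq table, 4 of 2370 mature miRNAs (0.169%) carried this seed, and the fourth, hsa-miR-4465, was not named on the array.

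miR-26a comes from 2 hairpins with the same mature sequence, so the array could not tell their products apart. In build GRCh38.p14, the mature miRNA of MIR26A1 is at chr3:37969413-37969434 on the plus strand, within the interval of CTDSPL. That of MIR26A2 is at chr12:57824658-57824679 on the minus strand, within CTDSP2. The mature miR-26b of MIR26B is at chr2:218402657-218402677 on the plus strand, within CTDSP1. The mature miR-1297 of MIR1297, at chr13:54311981-54311997 on the minus strand, lay within no protein-coding gene.

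The other arm of each hairpin, the passenger strand, was also on the array. miR-26a-1* and miR-26a-2* share their seed, while that of miR-26b* differs, and all are shown because none of them was detected.
hsa-miR-26a-1* (miR-26a-1-3p): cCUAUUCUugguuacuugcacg
hsa-miR-26a-2* (miR-26a-2-3p): cCUAUUCUugauuacuuguuuc
hsa-miR-26b* (miR-26b-3p): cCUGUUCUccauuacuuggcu
The 3 passenger strands and miR-1297 were detected on 0 of the 4 arrays, where an miRNA counts as detected if at least 1 of its probes is above 3 times its own error. None of the 60 values of their 15 probes was above that limit. The highest was that of a miR-26b* probe on the control array at 2 h, at 2.57 times its error. For these 4 miRNAs the files list a signal of 0.1, which stands for not detected, so no fold change was computed.

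Both guide strands were detected on all 4 arrays. The total signal of miR-26a, in the scanner's arbitrary units and not scaled between arrays, was 243.4 ± 20.0 (error given by the scanner software) in the control and 161.8 ± 13.5 with berberine at 2 h. At 4 h it was 215.4 ± 17.6 in the control and 323.4 ± 25.9 with berberine. The berberine array was thus the lowest of the 4 at 2 h and the highest at 4 h.

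miR-26b had the same order over the 4 arrays. Its total signal was 746.3 ± 54.8 in the control and 481.4 ± 35.7 with berberine at 2 h, and 715.8 ± 52.8 in the control and 1035.5 ± 76.2 with berberine at 4 h. The unscaled ratio of berberine over control was 0.665 for miR-26a and 0.645 for miR-26b at 2 h. At 4 h it was 1.501 for miR-26a and 1.45 for miR-26b.

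The arrays as a whole moved in the same way. The 75th percentile of the signals of the 197 human miRNAs detected on all 4 arrays was 243.4 and 169.1 for control and berberine at 2 h, and 225.5 and 297.3 at 4 h. Hence the berberine array was 0.695-fold as bright as its control at 2 h and 1.32-fold as bright at 4 h. The number of human miRNAs detected moved with it, and was 235 (control) and 199 (berberine) after 2 h and 226 and 242 after 4 h. Each signal was therefore divided by the 75th percentile of its array, and the scaled values below are log2 of that quotient.

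The scaled log2 signal of miR-26a was 0.00 in the control and -0.06 with berberine at 2 h, and -0.07 in the control and 0.12 with berberine at 4 h. On the control array at 2 h, miR-26a was itself the 75th percentile. That of miR-26b was 1.62 and 1.51 for control and berberine at 2 h, and 1.67 and 1.80 at 4 h. After scaling, the highest and the lowest array differed by 1.14-fold for miR-26a and 1.22-fold for miR-26b, against 2.00-fold and 2.15-fold before it. The range over the 4 arrays was 0.19 on the log2 scale for miR-26a and 0.29 for miR-26b, and its median over the 197 miRNAs was 0.27.

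**Figure D1:**
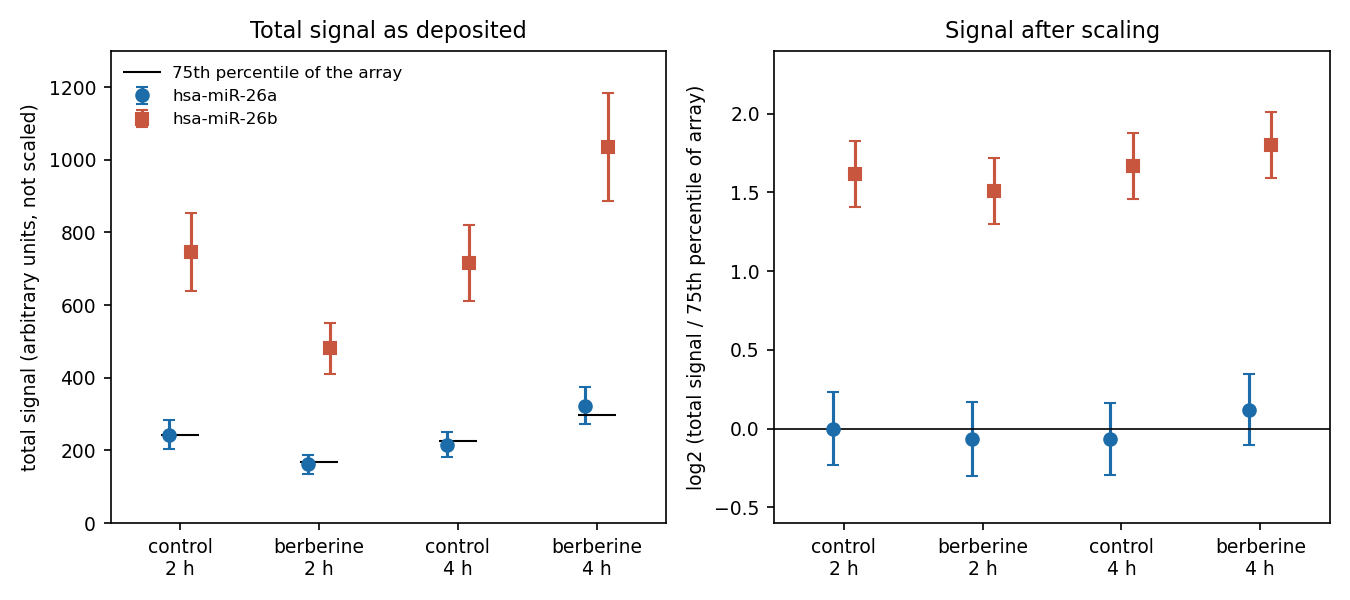
Total signal in arbitrary units (left) and log2 of the signal over the 75th percentile of the array (right) of hsa-miR-26a (circles) and hsa-miR-26b (squares) on the 4 arrays. Bars are 95% ranges from the errors and black lines on the left are the 75th percentile of each array. The signals move with the brightness of the arrays on the left, from 161.8 to 323.4 for miR-26a, and after scaling the bars of each miRNA overlap across all 4 arrays.

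The first comparison asked whether berberine treatment for 2 h altered the level of either miRNA. The scaled log2 ratio of berberine over control was -0.06 ± 0.17 (SE, from the errors of the 2 arrays) for miR-26a, a 0.956-fold level with a 95% range of 0.760 to 1.20. It was -0.11 ± 0.15 for miR-26b, a 0.928-fold level with a range of 0.757 to 1.14. Both ranges held 1, and both ended short of 2-fold, the threshold of the study. The median over the 197 miRNAs detected on both arrays was -0.02, with quartiles of -0.09 and 0.08. miR-26a stood between the quartiles, with 68 miRNAs below it, and miR-26b just below them, with 40 below it. Of the 197 miRNAs, 2 (1.02%) were past 2-fold at 2 h, hsa-miR-21* at 2.59 and hsa-miR-431* at -1.45, and neither was a miR-26 guide strand.

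At 4 h the ratio had the opposite sign. It was 0.19 ± 0.17 for miR-26a, a 1.14-fold level with a range of 0.910 to 1.42, and 0.13 ± 0.15 for miR-26b, a 1.10-fold level with a range of 0.894 to 1.35. These ranges held 1 as well and ended short of 2-fold. The median over the 218 miRNAs detected on both arrays was 0.11, with quartiles of -0.02 and 0.23, and both members stood between them. Of the 218 miRNAs, 2 (0.917%) were past 2-fold at 4 h, hsa-miR-21* at 1.68 and hsa-miR-194* at -1.32, and again neither was a miR-26 guide strand. The sign of miR-26b at 4 h turned with the scaling, to -0.04 with the arrays scaled to the median and to -0.03 with quantile normalization, whereas that of miR-26a kept its sign in both, at 0.02 and 0.13.

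**Figure D2:**
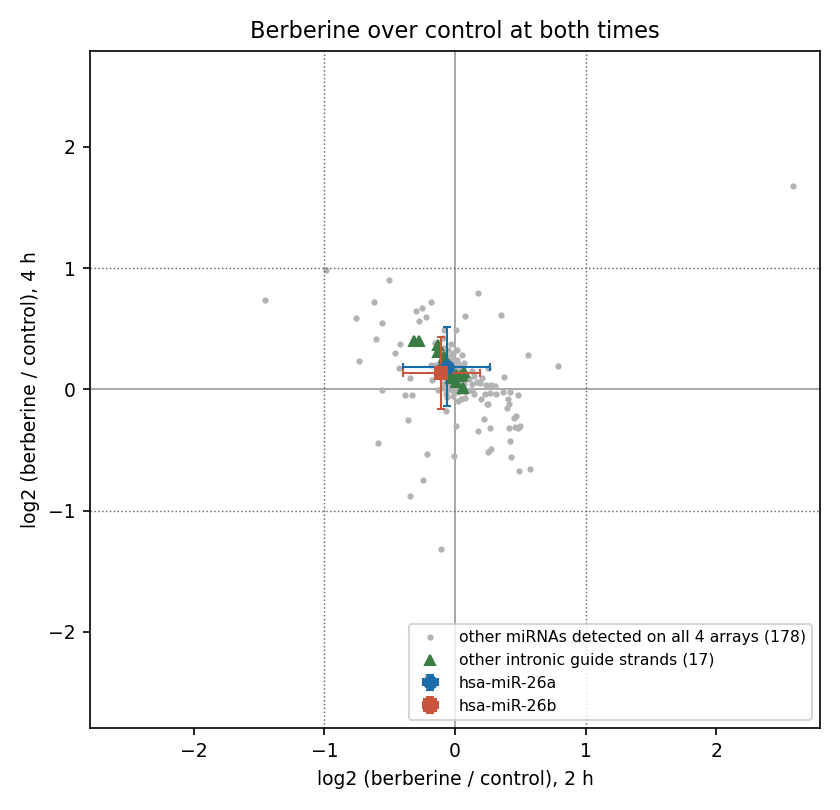
Scaled log2 ratio of berberine over control at 2 h (horizontal) and 4 h (vertical) for the 197 miRNAs detected on all 4 arrays, with hsa-miR-26a and hsa-miR-26b and their 95% ranges, and 17 other guide strands from introns as triangles. Dotted lines mark 2-fold. Both members lie near the middle of the cloud, at -0.06 and -0.11 at 2 h and 0.19 and 0.13 at 4 h.

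The difference between the ratios at the 2 times was 0.25 ± 0.24 for miR-26a and 0.24 ± 0.21 for miR-26b, with 95% ranges of -0.21 to 0.71 and -0.18 to 0.66. Over the 197 miRNAs its median was 0.14, and 96 of them (48.7%) were below 0 at 2 h and above 0 at 4 h, as both members were. With the arrays scaled to the median these were 55 (27.9%), with miR-26a among them and miR-26b not. The ratio was higher at 4 h than at 2 h for 135 of the 197 (68.5%) with the 75th percentile. The median ratio of the 197 was then -0.02 at 2 h and 0.11 at 4 h. Scaled to the median, it was -0.03 at 2 h and -0.06 at 4 h. Most of the 197 ratios were then lower at 4 h than at 2 h, and their number was not counted.

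Over both times together, limma was fitted to the scaled values of the 197 miRNAs with treatment and time point as terms. The log2 ratio was 0.06 ± 0.21 (SE) for miR-26a, with an adjusted p of 0.997 from limma, and the 95% interval was 0.783-fold to 1.39-fold. It was 0.01 ± 0.21 for miR-26b, with an adjusted p of 0.997 from limma and an interval of 0.758-fold to 1.34-fold. Both were below control at 2 h and above it at 4 h, so each showed the direction of its mean in 1 of 2 times. In this fit 1 of 197 miRNAs (0.508%) passed the threshold, hsa-miR-21*, and 9 had an unadjusted p under 0.05, with neither member among them. Over the 17 alternatives hsa-miR-21* was called in 3, not called in 13 and not tested in 1, and 0 to 23 miRNAs had an unadjusted p under 0.05. With 4 arrays the fit had 1 residual degree of freedom for each miRNA and took most of its estimate of the spread from the other miRNAs. The 2 times stood in for replicates. The SE, interval and p of the fit thus rest on how the ratios differed between the times, not on the spread between cultures. For miR-26a the SE moved with the scaling, to 0.088 with the median and 0.57 without scaling.

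The control arrays show how far the values moved without berberine. From 2 h to 4 h in the control cells, the scaled log2 signal changed by -0.07 ± 0.17 for miR-26a and 0.05 ± 0.15 for miR-26b. The median over the 219 miRNAs detected on both arrays was -0.08, with quartiles of -0.19 and -0.01. miR-26a stood between the quartiles and miR-26b above them, with 190 of the 219 below it. The sign for miR-26a turned with the processing, to 0.15 with the median, 0.04 with the brightest probe and 0.0093 with the same probes or with normexp. With the median this was larger than its ratio of berberine over control after 2 h, -0.08. From 2 h to 4 h in the berberine-treated cells, miR-26a was 0.19 ± 0.17 higher and miR-26b 0.29 ± 0.15 higher, with a 95% range of -0.0038 to 0.59 for miR-26b. The median over the 197 miRNAs was 0.05, with quartiles of -0.20 and 0.18, and both members stood above them, with 149 and 171 miRNAs below.

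The next question was whether the miRNAs, with 1 seed but different hosts, changed by different amounts. Dividing an array by 1 number cancels in this comparison, whereas quantile normalization does not. The change of miR-26b minus that of miR-26a was -0.04 ± 0.23 at 2 h, with a 95% range of -0.49 to 0.40, and -0.05 ± 0.22 at 4 h, with a range of -0.49 to 0.38. With quantile normalization it was 0.0020 at 2 h and -0.17 at 4 h, within these ranges. Hence no difference was detectable, and a change of miR-26b between 0.714-fold and 1.32-fold that of miR-26a at 2 h was within the errors. The signal of miR-26b was 2.98 to 3.32 times that of miR-26a on the 4 arrays. Probes differ in how well they bind and label, so this quotient is not a ratio of molecules, but it can be followed across the arrays, on which it varied little. The sequences of the members are alike, and whether the probes of 1 member also bind the other was not tested. How far these comparisons separate the members is therefore not known.

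Each guide strand was measured with 2 probes of 8 spots each on every array, 128 spots in all, and all 128 were well above background. The brighter probe of miR-26a gave 76.2% to 79.8% of its total signal, and that of miR-26b gave 63.8% to 65.2%. The share of the brighter miR-26a probe was 79.3% (control) and 79.8% (berberine) after 2 h, and 78.1% (control) and 76.2% (berberine) after 4 h. The probes of miR-26b kept their shares closer than those of miR-26a.

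The probes of miR-26a gave somewhat different ratios at 4 h, within their errors. The dimmer probe had a scaled log2 ratio of 0.31 ± 0.21 and the brighter probe one of 0.15 ± 0.20. At 2 h these were -0.10 ± 0.22 and -0.05 ± 0.21. With the 75th percentile, the spots of the dimmer probe at 4 h were separate, with every spot of the berberine array above every spot of the control array, and in the other comparisons of berberine with control the spots of miR-26a overlapped. Of the 439 probes of the 197 miRNAs, 63 (14.4%) had separate spots at 2 h and 116 (26.4%) at 4 h, leaving out outlier spots, and 43 (9.79%) and 55 (12.5%) with these kept. With the arrays scaled to the median, the spots of the dimmer miR-26a probe overlapped at 4 h as well.

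The spots of miR-26b were tighter. At 2 h the ratio was -0.17 ± 0.20 for its dimmer and -0.07 ± 0.20 for its brighter probe, and with both probes every spot of the berberine array, scaled, was below every spot of the control array. At 4 h it was 0.14 ± 0.20 and 0.13 ± 0.20, and every spot of the berberine array was above every spot of the control array. With the arrays scaled to the median, the separation of both probes held at 2 h, where 67 of the 439 probes (15.3%) were separate, and was lost at 4 h, where 68 (15.5%) were. For the brighter probe at 4 h the spots also overlapped with the 75th percentile if the outlier spots marked by the scanner software were kept. Spots of 1 array are repeated readings of 1 RNA sample, so this separation concerns the arrays and not the cells.

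**Figure D3:**
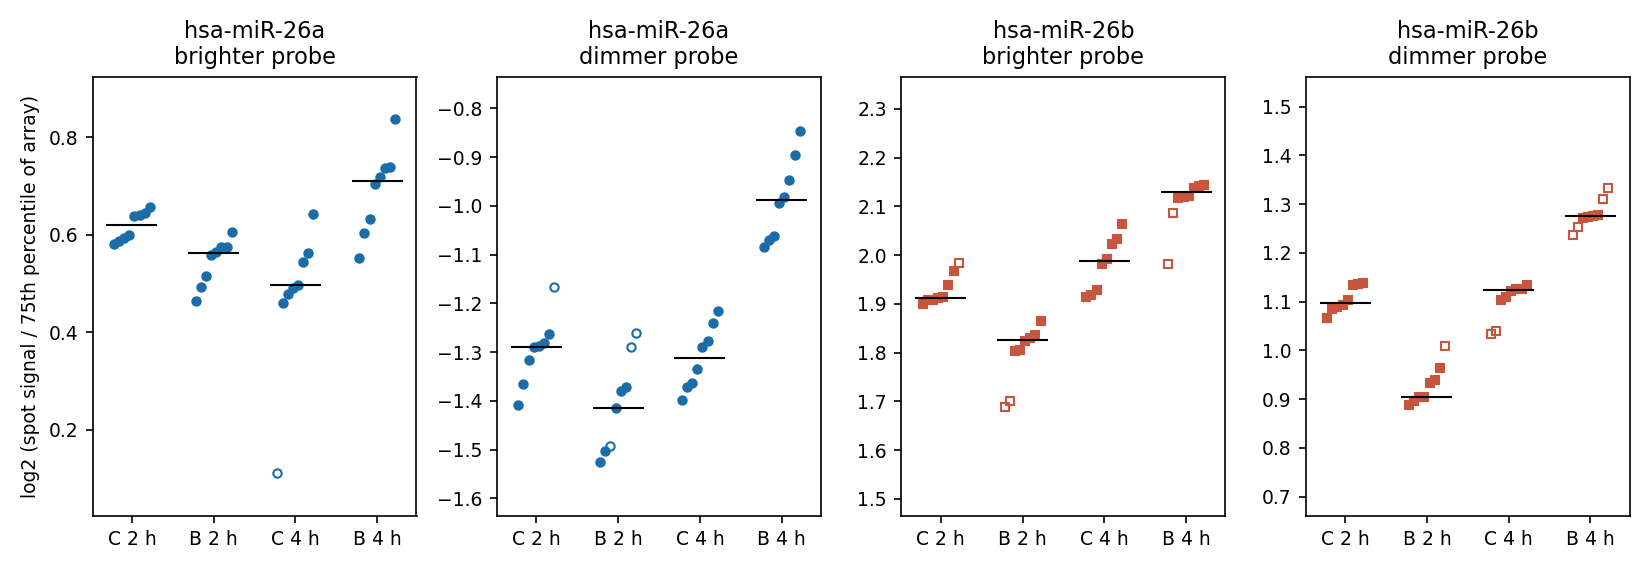
Log2 of the signal of each spot over the 75th percentile of its array, for both probes of hsa-miR-26a and hsa-miR-26b on the control (C) and berberine (B) arrays at 2 h and 4 h. There are 8 spots for each probe and array, open symbols are outlier spots and lines are medians without them. The panels have different positions on the vertical axis and the same span. With this scaling the berberine spots of the miR-26b probes lie below the control spots at 2 h and above them at 4 h, apart from 1 outlier spot of the brighter probe at 4 h, and those of the brighter miR-26a probe overlap with the control spots at both times. With the median the 4 h spots of all 4 probes overlap.

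The errors given by the scanner software were larger than the spread of the spots. Leaving out 17 outlier spots, the coefficient of variation over the spots of a probe was 2.08% to 6.27% for miR-26a and 0.162% to 3.95% for miR-26b. The error of a spot was 10.0% to 11.1% of its signal. The ranges above are thus wider than the spots alone would give, and they still leave out the spread between cell cultures.

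To describe which miRNAs had the most similar course, the scaled log2 signals of each of the 197 miRNAs were centred on their own mean, and the root mean square difference from each member over the 4 arrays was taken. The 3 miRNAs nearest to miR-26a were miR-1290 (a difference of 0.011), miR-30c (0.014) and miR-19a (0.018), an oncogenic member of the miR-17-92 cluster. Nearest to miR-26b were miR-145 (0.013), miR-199a-3p (0.022) and miR-10b (0.026), which is encoded in the HOXD cluster. miR-26b was not among the nearest to miR-26a, at 0.060 and rank 61 of 196, and miR-26a was at rank 17 of 196 from miR-26b. The median difference over the other miRNAs was 0.11 from miR-26a and 0.14 from miR-26b. The differences of the nearest miRNAs, and that between the members, were smaller than the log2 errors of the members, and all values share the same 4 arrays.

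**Figure D4:**
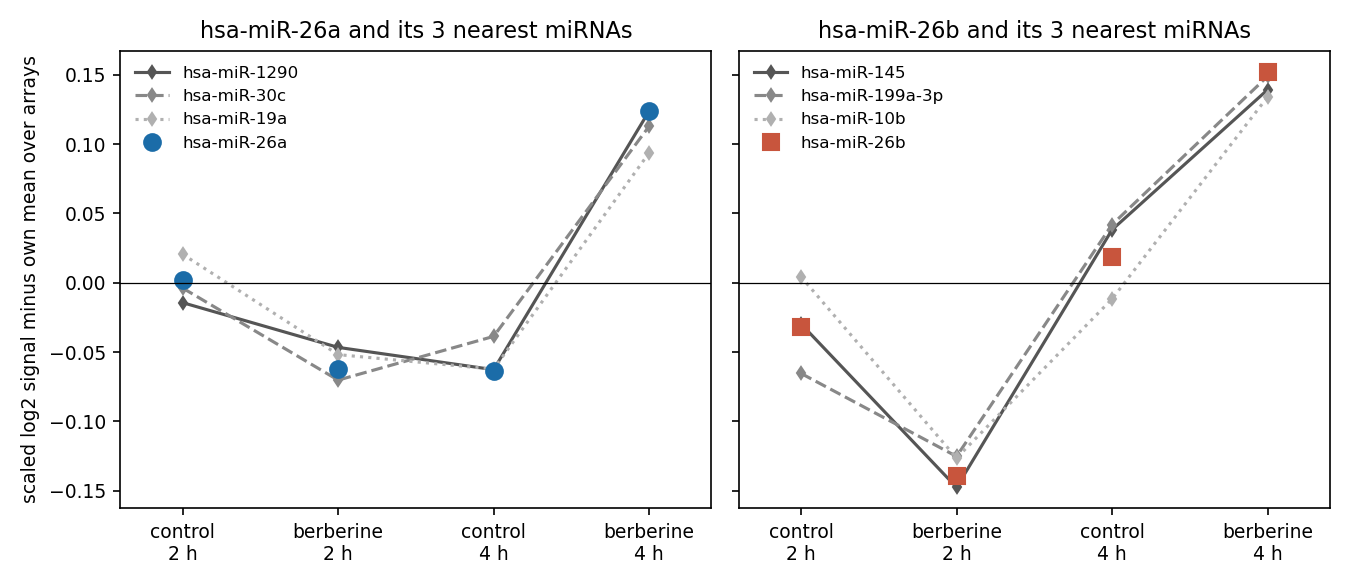
Scaled log2 signal minus its own mean over the 4 arrays for hsa-miR-26a (left) and hsa-miR-26b (right), each with its 3 nearest miRNAs as grey diamonds. The centred values of miR-26a lie between -0.06 and 0.12 and those of miR-26b between -0.14 and 0.15, with the berberine array at 4 h the highest for both.

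Like miR-26, other guide strands are cut from introns of protein-coding genes, and 21 of them were listed for comparison. Of these 17 were detected on all 4 arrays and 2, miR-33b and miR-342-3p, on none. At 2 h the 17 had a median log2 ratio of -0.05, against -0.02 for the 197 miRNAs, with 11 below 0 and 6 above it, against 83 of the 197 (42.1%) above it. The lowest was miR-335, hosted by MEST, at -0.31 ± 0.23, and the highest miR-30e, hosted by NFYC, at 0.07 ± 0.17.

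At 4 h all 17 were above 0, with a median of 0.14, against 142 (72.1%) and 0.11 for the 197 miRNAs. With the arrays scaled to the median, 7 of the 17 were above 0 and 10 below it, against 71 of the 197 (36.0%) above 0. With the 75th percentile they went from miR-93, of the MCM7 intron, at 0.01 ± 0.17 to miR-33a, of the SREBF2 intron, at 0.40 ± 0.27. None of the 17 was past 2-fold at either time, and 0 passed the limma fit, with 0 at an unadjusted p under 0.05. The ratios of berberine over control of both miR-26 guide strands lay within the span of these miRNAs at each time. From 2 h to 4 h in the control cells, miR-26b, at 0.05 ± 0.15, was above all 17, the highest of which was miR-15b at 0.0015, and with the median it was 0.26 against 0.21 for miR-15b. miR-26b was thus above 0 with both scalings, whereas the sign of most other miRNAs turned. With the 75th percentile 1 of the 17 and 39 of the 197 (19.8%) were above 0. With the median these were 15 of the 17 and 155 of the 197 (78.7%).

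The label of the cells was checked with miRNAs of liver and of other cell types. All 5 liver miRNAs were detected on all 4 arrays, as were 23.1% of all human miRNAs. miR-122, the defining miRNA of hepatocytes, was dim, with signals of 31.5 and 22.4 for control and berberine at 2 h and 30.1 and 39.9 at 4 h, while miR-192 was the brightest of the 5, at 1268.2, 821.2, 1068.7 and 1564.6. After 2 h their log2 ratios had a median of -0.03 and went from -0.10 (miR-192) to 0.03 (miR-122). After 4 h the median was 0.16, against 0.11 for the 197 miRNAs, with miR-122 lowest at 0.01 and miR-194 highest at 0.32. These values are for the 75th percentile. With the arrays scaled to the median, the median of the 197 at 4 h was -0.06. Most of the 5 liver miRNAs were then below 0, miR-122 among them, while miR-194 stayed above it. None of the 5 passed the limma fit, with 0 at an unadjusted p under 0.05.

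Of the 11 miRNAs of other cell types, 7 were detected on no array, which is near the share of all human miRNAs on no array, 599 of 851 (70.4%). These were miR-1, miR-133a and miR-206 of muscle, miR-124 and miR-9 of neurons, and miR-223 and miR-150 of blood cells. miR-145, of smooth muscle and fibroblasts, was detected on all 4, at 30.8, 19.7, 29.9 and 42.3. miR-142-3p, miR-451 and miR-143 were detected on the berberine array at 4 h alone, at 6.13, 5.31 and 3.95. The summed signal of the detected ones was 30.8 (control) and 19.7 (berberine) after 2 h, and 29.9 (control) and 57.7 (berberine) after 4 h. It was highest on the array that was also the brightest and the highest for both miR-26 guide strands, and its part in their values was not tested.

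Since the ratios of miR-26a and miR-26b were small beside their errors, they are shown for each way of processing. At 2 h the log2 ratio was -0.59 for miR-26a and -0.63 for miR-26b without scaling, where the median of the 197 miRNAs was -0.55. At 4 h it was 0.59 and 0.53 without scaling, with a median of 0.51. Apart from no scaling and a percentile taken over undetected miRNAs, the alternatives moved the ratios by less than the 95% ranges.

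**Figure D5:**
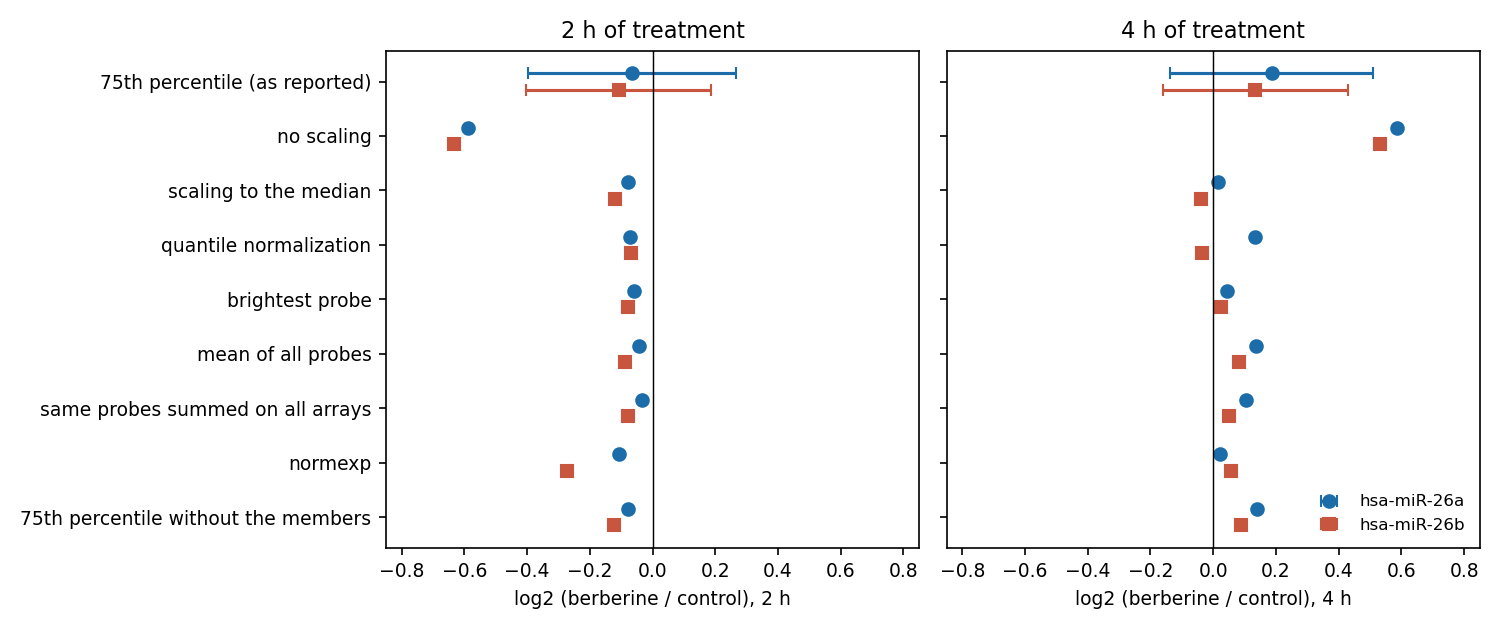
Log2 ratio of berberine over control at 2 h (left) and 4 h (right) of hsa-miR-26a (circles) and hsa-miR-26b (squares) under each scaling or summary of the probes, with bars of the 95% range on the values as reported. The percentile over all human miRNAs is not drawn. The unscaled ratios, -0.59 and -0.63 at 2 h and 0.59 and 0.53 at 4 h, are the farthest from 0. The others lie nearer to 0, with that of miR-26b at 2 h with normexp, -0.27, the farthest of them.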

How the data were processed

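The authors deposited, for each array, the output of Feature Extraction 10.7.3.1, with a background-subtracted intensity and its error for each spot, probe and miRNA, not scaled between arrays. A second deposited table holds the authors' own ratios of berberine over control and was not used. The authors' grid was made on build hg18, and no coordinates were taken from it. All 4 arrays lay on 1 slide and no feature was saturated, with 0 on each array.

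Intensities were taken as log2 minus the 75th percentile of the array over 197 human miRNAs, those detected on every array. The total signal sums the detected probes of an miRNA. The SE of a log2 ratio came from the deposited errors, and the 95% range is the normal one. A single time gave no p. The fit to both times used limma 3.58.1 under R 4.3.3 (lmFit and eBayes, with the Benjamini-Hochberg adjustment over 197 miRNAs and a threshold of 0.05). It was also run on simulated data, with the same noise for every miRNA and the same change at both times. That run does not cover the scaling of the arrays or a ratio that differs between the times. Other steps ran in Python 3.11.15 (matplotlib 3.10.9, scipy 1.17.1, pandas 2.3.3, numpy 2.4.6). RefSeq names were found for 6 of 6 miRNAs looked up.

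By a rule, the miRNAs named were the members, the passenger strands, miR-1297, the lowest and highest members of each list and the 3 nearest to each member. The spot-level comparison, the passenger strands past 2-fold, hsa-miR-4465, the other miRNAs of the lists named by detection or level and the 75th percentile without the members were chosen after the values were seen. The members and lists were chosen with earlier results of these data known.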

Additional observations from a re-analysis of the deposited data

Results flagged for a closer look

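With the 75th percentile, both guide strands were below the control with berberine after 2 h and above it after 4 h. For miR-26a it was -0.06 and then 0.19 on the log2 scale of the ratio, a difference of 0.25, and for miR-26b -0.11 and 0.13, a difference of 0.24. With 1 array per condition the difference was not tested, its 95% range held 0 for both, and 96 of 197 miRNAs (48.7%) had the same pair of signs. miR-26b after 4 h turned to -0.04 with the median and -0.03 with quantile normalization. With the median 55 of 197 miRNAs (27.9%) were below the control after 2 h and above it after 4 h. The log2 ratios after 2 h and 4 h were then -0.08 and 0.02 for miR-26a, and -0.12 and -0.04 for miR-26b. For both they lay closer together than with the 75th percentile.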

How the results depend on the processing

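With 1 array per condition, the ranges cover the errors within an array and hold no spread between cultures. The scaling had the largest part: without it the ratios were -0.59 (miR-26a) and -0.63 (miR-26b) at 2 h and 0.59 and 0.53 at 4 h. With the percentile taken over all human miRNAs they were 5.04 and 5.00 at 2 h, -0.22 and -0.27 at 4 h, and 0.44 and 0.55 from 2 h to 4 h in the control cells. On the berberine array at 2 h only 199 of 851 miRNAs were detected, so that this percentile is the value listed for undetected miRNAs. The other alternatives kept the single-time ratios and the differences between the members within the 95% ranges.

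Over both times, no alternative called either member, with adjusted p from limma of 0.444 to 1 for both, and the sign was not stable. The 0.444 came from the percentile over all human miRNAs, where the log2 ratio was 2.41 for miR-26a and 2.36 for miR-26b. For miR-26a the sign turned without scaling (-0.0016), with the median (-0.031), the brightest probe (-0.0064) and normexp (-0.042). For miR-26b it turned without scaling (-0.050), with the median (-0.079), quantile normalization (-0.052), the brightest probe (-0.026), the mean of all probes (-0.0032), the same probes on all arrays (-0.014), normexp (-0.11) and the 75th percentile without the members (-0.017), the last chosen after the data were seen. Leaving out 1 array, and the time point with it, gave -0.031 to 0.15 for miR-26a and -0.13 to 0.16 for miR-26b. The sign turned without the berberine array at 4 h for both (-0.031 and -0.13) and without the control array at 2 h for miR-26b (-0.012). In these fits the lone array of a treatment is assumed to vary like the others.

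The count of 1 miRNA called by limma over both times was 0 with no scaling, the median, the percentile over all miRNAs, quantile normalization, the brightest probe, the mean of all probes, the same probes, normexp, no time point, miRNAs above the median signal and miRNAs detected on any array, with 0 to 5 at an unadjusted p under 0.05. Leaving out 1 array gave 0 to 1, and 0 without the control array at 2 h, the berberine array at 2 h or the control array at 4 h. The number at an unadjusted p under 0.05 was then 5, 16 and 3, and it was 23 without the berberine array at 4 h, against 9 in the fit to all arrays. The 2 miRNAs past 2-fold at 2 h became 11 without scaling, 197 with the percentile over all miRNAs, 4 with the brightest probe, 1 with the mean of all probes, 1 with normexp and 9 past 1.5-fold. The 2 at 4 h became 12 without scaling, 7 with the percentile over all miRNAs, 4 with the brightest probe, 0 with normexp and 21 past 1.5-fold. Each group holds 1 array, so the replicate number pairs no samples, and the arrays are paired by time through the time point in the fit. Without the time point the ratios were the same, 0.06 and 0.01, with adjusted p of 0.997 for both from limma. The deposited ratio table was not run as an alternative, since its columns are the authors' own comparisons.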
